A study of Mus musculus with 8 samples.

Results

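Oligodendrocyte precursor cells (OPC) were 1522 of 61949 annotated nuclei from the brains of 6-month-old mice of 4 genotypes. Members were the nuclei that the authors' deposited annotation calls OPC, and the transcript molecules (UMIs) of all OPC nuclei of a library were added into 1 profile. The tissue was hemispheres of C57BL6/J mice from which cerebellum and olfactory bulb had been removed, and single nuclei were sequenced in 8 libraries, with replicates 1 and 2 for each genotype. The groups were wild type (WT), Cnp-/- (both copies of Cnp inactivated), 5xFAD (human transgenes, APP among them, that carry familial Alzheimer's disease mutations) and Cnp-/- 5xFAD, which carries both changes. Cnp encodes 2′,3′-cyclic nucleotide 3′-phosphodiesterase, a myelin enzyme, and its null allele is carried by every cell of the mutants, not by OPC alone. The 5xFAD transgenes are driven by a Thy1 promoter, which is active in neurons. The design asks what Cnp loss, amyloid and both together do to OPC. The study states in general that animals were pooled for each single-cell replicate, which the labels do not give by library, and p-values measure the spread between these libraries.

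OPC, also called NG2 glia, are the dividing progenitors of the oligodendrocyte lineage and persist through the grey and white matter of the adult brain. They divide in response to platelet-derived growth factor acting on Pdgfra, receive synaptic input from neurons through glutamate and GABA receptors, and surround themselves with chondroitin sulfate proteoglycans such as Cspg4 (NG2) and Vcan (versican). On the way to myelin formation they leave the cell cycle, lose these receptors and pass through a newly formed oligodendrocyte state that expresses Enpp6 and Bcas1.

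OPC made up 2.20% and 1.32% of the nuclei of the WT libraries, 2.71% and 1.99% of Cnp-/-, 4.15% and 2.69% of 5xFAD, and 2.47% and 2.15% of Cnp-/- 5xFAD. WT replicate 2 was the lowest, with 90 OPC nuclei and an exact binomial 95% interval of 1.07% to 1.62%, and 5xFAD replicate 1 the highest, with 309 OPC nuclei and an interval of 3.71% to 4.63% (intervals cover counting error only). The share was 2.33% ± 0.320 (SD, n = 4 libraries) without Cnp and 2.59% ± 1.18 (n = 4) with it, a difference of -0.259 percentage points (two-sided exact permutation over 70 relabellings, p = 0.714, adjusted p = 0.714 over both share tests). It was 2.87% ± 0.886 (n = 4) with 5xFAD and 2.06% ± 0.574 (n = 4) without, a difference of 0.810 percentage points (exact permutation p = 0.229, adjusted p = 0.457, where 0.0286 is the smallest p this design allows). Neither difference passed, and both depended on 5xFAD replicate 1, without which they were 0.262 percentage points by Cnp and 0.380 by 5xFAD. As a share of nuclei that are not neurons, OPC differed by 0.314 percentage points with 5xFAD (exact permutation p = 0.771). Among lineage nuclei the OPC share ran from 16.2% to 23.7%. Newly formed oligodendrocytes numbered 20.4 and 24.4 per 100 OPC in WT, 23.5 and 27.3 in Cnp-/-, 33.7 and 37.6 in 5xFAD, and 37.6 and 35.7 in Cnp-/- 5xFAD. All 4 libraries with 5xFAD were above the 4 without it on this ratio, which was chosen after its values were seen and carries no test.

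**Figure D1:**
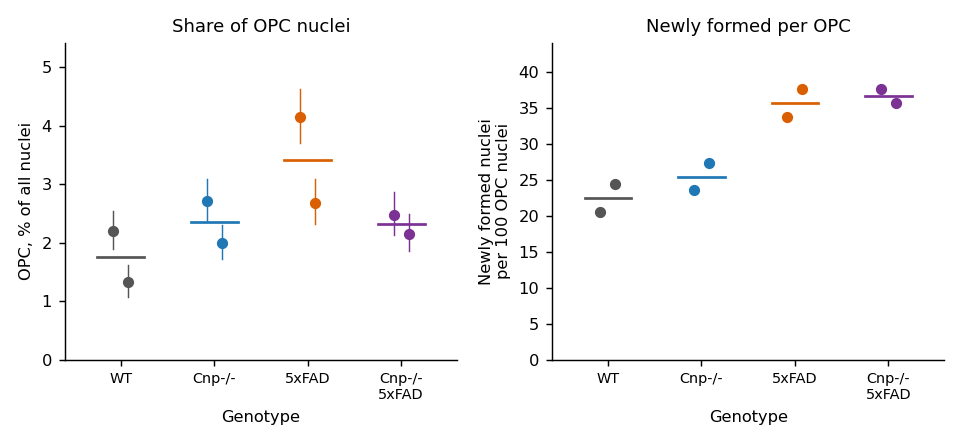
OPC nuclei by library, as percent of all nuclei with exact binomial 95% intervals in one panel and as newly formed oligodendrocytes per 100 OPC in the other, with points for libraries and a line for the mean of each genotype. The OPC share runs from 1.32% to 4.15%, with both 5xFAD libraries (4.15% and 2.69%) above both WT and both Cnp-/- 5xFAD libraries and Cnp-/- replicate 1 (2.71%) just above the lower 5xFAD library, and the newly formed ratio lies between 20.4 and 27.3 in libraries without 5xFAD and between 33.7 and 37.6 in libraries with it.

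The OPC profiles held 350331 to 1057104 UMIs per library, and the median OPC nucleus of a library held 2491 to 3655.5 UMIs and 1586 to 2033.5 detected genes. Of the 61949 nuclei, 909 shared a cell barcode with a nucleus of another library, 21 OPC nuclei among them, and 0 barcodes belonged to OPC of more than 1 library.

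Pdgfra, the receptor for platelet-derived growth factor AA (GRCm38 chr5:75152292-75198215, plus strand), was at 850 and 1088 CPM (counts scaled to the same OPC total in every library) in WT, 804 and 817 in Cnp-/-, 865 and 831 in 5xFAD, and 708 and 836 in Cnp-/- 5xFAD. Cspg4, the NG2 proteoglycan (chr9:56865033-56899870, plus strand), was at 417 and 328 CPM in WT, 316 and 249 in Cnp-/-, 449 and 325 in 5xFAD, and 304 and 319 in Cnp-/- 5xFAD. Vcan, the matrix proteoglycan versican (chr13:89655312-89742509, minus strand), was at 834 and 1410 CPM in WT, 944 and 1068 in Cnp-/-, 967 and 1021 in 5xFAD, and 952 and 1076 in Cnp-/- 5xFAD. Each marker was present at 249 CPM or more in each of the 8 libraries, and WT replicate 2, the smallest profile, was the highest for Pdgfra and Vcan. These are levels of single genes along the libraries and do not rank the genes against each other, since CPM is not scaled for length. Mean Pdgfra was 850 CPM ± 107 (SD, n = 8 libraries) in OPC, against 363 in newly formed and 0.362 in mature oligodendrocytes. It was 17.5 CPM in pericytes, 4.64 in neurons and 3.80 in astrocytes. Mean Vcan took the same order, from 1034 CPM in OPC through 559 in newly formed to 1.29 in mature oligodendrocytes. Cspg4 is also a pericyte gene, and its mean of 338 CPM in OPC lay beside 352 in pericytes and 166 in newly formed oligodendrocytes.

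The promoter windows of the markers are shown because these genes carry the OPC label. Each is 170 bases of RefSeq sequence (GRCm38.p6) on the gene's own strand that lie wholly before its start, at chr5:75152001-75152170 (plus) for Pdgfra, chr9:56864854-56865023 (plus) for Cspg4 and chr13:89742593-89742762 (minus) for Vcan. Capitals mark the E-box CANNTG, the letters to which Olig2 and other basic helix-loop-helix factors bind.
Pdgfra: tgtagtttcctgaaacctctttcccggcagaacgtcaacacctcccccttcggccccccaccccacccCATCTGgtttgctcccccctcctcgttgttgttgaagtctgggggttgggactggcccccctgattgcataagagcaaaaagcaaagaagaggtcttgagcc
Cspg4: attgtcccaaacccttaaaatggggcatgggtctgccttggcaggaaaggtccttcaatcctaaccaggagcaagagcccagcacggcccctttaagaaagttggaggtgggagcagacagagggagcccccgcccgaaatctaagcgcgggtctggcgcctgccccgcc
Vcan: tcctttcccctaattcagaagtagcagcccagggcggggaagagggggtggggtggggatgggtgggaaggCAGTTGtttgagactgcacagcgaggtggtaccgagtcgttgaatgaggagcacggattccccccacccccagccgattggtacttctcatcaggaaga
The Pdgfra window held 1 E-box, the Cspg4 window 0 and the Vcan window 1, in a search of both strands, and 53.5% of 32851 windows of this length hold at least 1. The E-box form CAGCTG (in 8.65% of windows) and the SOX letters ACAAAG (11.6%) and ACAATG (7.47%) were in none of these 3 windows. A match is a description of letters and not of binding.

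The marker genes were also counted nucleus by nucleus, as a description, since the nuclei were typed from these same counts. After each nucleus was thinned to 1000 UMIs, so that depth was equal, a Pdgfra UMI was found in 52.9% of OPC (exact binomial 95% interval 50.3% to 55.4%; 48.5% to 67.8% across libraries), 28.0% of newly formed oligodendrocytes, 0.379% of astrocytes and 0.341% of neurons. In mature oligodendrocytes it was found in 0 of 4531 nuclei, which at this depth allows a share with a UMI of up to 0.0814%, and before thinning in 4 of 5612. At least 1 of the 3 markers was found in 84.4% of OPC, 63.7% of newly formed oligodendrocytes, 5.51% of astrocytes, 1.76% of neurons and 0.993% of mature oligodendrocytes. Before thinning, 98.7% of OPC nuclei had at least 1 marker UMI, and the median UMIs per nucleus were 9105 in neurons, 2636 in astrocytes, 3036 in OPC, and 4852 in newly formed and 1515 in mature oligodendrocytes. The thinning left out 1081 mature oligodendrocytes, 58 astrocytes and 17 neurons that were shallower, and no OPC.

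Genes of later stages differed in how far their shares set OPC apart from their progeny. Enpp6, which marks newly formed oligodendrocytes, was found in 0.197% of thinned OPC and 16.6% of newly formed oligodendrocytes, and its share in OPC was near the 0.157% of neurons, the background. Gpr17, a receptor of precursors committed to differentiation, was found in 7.62% of OPC and 6.67% of newly formed oligodendrocytes, against 0.0421% of astrocytes. The intervals of the OPC and newly formed shares overlap and cover counting error only. Across libraries the share ran from 4.62% to 16.7% in OPC and from 3.92% to 9.09% in newly formed oligodendrocytes. Bcas1, which is switched on in premyelinating cells, was found in 36.2% of OPC, 51.0% of newly formed and 59.5% of mature oligodendrocytes, against 1.09% of astrocytes. For Mbp, a major myelin protein gene, the 6.31% of OPC was below the 7.54% of neurons and is read as background. Nuclei with several mitotic transcripts were few at this depth: at least 2 UMIs of 20 mitotic genes were found in 1.45% of thinned OPC (22 nuclei), 1.51% of newly formed oligodendrocytes and 0.166% of neurons.

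Markers of other cell types in the OPC profiles were low for most types and differed between libraries. The 13 mature oligodendrocyte markers summed to 69.8 and 511 CPM in WT, 414 and 505 in Cnp-/-, 186 and 244 in 5xFAD, and 377 and 386 in Cnp-/- 5xFAD, against 20988 to 26076 CPM in mature oligodendrocytes themselves. WT replicate 1 stood lowest and the other WT library highest on this sum. The 10 neuron markers summed to 207 to 649 CPM in OPC against 6070 to 7209 in neurons, with the vesicular glutamate transporter Slc17a7 at 0 in all OPC. The 10 microglia markers summed to 28.5 to 82.2 CPM in OPC of libraries with Cnp and 85.9 to 134 CPM without it, so these groups did not overlap. The endothelial markers summed to 6.32 to 54.5 CPM with Kdr at 0, the pericyte markers to 1.93 to 39.8 CPM, and the markers of vascular leptomeningeal cells, the other brain cells with Pdgfra, to 0 to 12.6 CPM with Col3a1 at 0. The 11 astrocyte markers, several of which OPC share, summed to 4756 to 5885 CPM, and the 12 OPC markers to 17976 to 19949 CPM.

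Of 3996 genes with a mean of at least 50 CPM in OPC, 503 had their highest mean in OPC among 8 cell types, and 56 were at least 2 times above the next type, which was newly formed oligodendrocytes for 51 of them. As the nuclei were typed from these same counts, the following values describe the type and carry no test. The 10 largest ratios to the next type belonged to Vstm2b (2.99), Tafa4 (2.91), Tmem255b (2.62), Chl1 (2.58), Ankfn1 (2.51), Pcsk1n (2.47), Ccnd1 (2.46), Galnt3 (2.38), Elfn1 (2.36) and Pdgfra (2.34), each with newly formed oligodendrocytes next. Chl1, a neural cell adhesion molecule, was at 482 CPM ± 58.0 (SD, n = 8), and Ccnd1, the cyclin D1 that drives entry into the cell cycle, had a mean of 82.2 CPM. Tafa4, a secreted chemokine-like protein, was at 97.2 CPM ± 13.8 (n = 8). Pcsk1n, an inhibitor of prohormone processing, rested on 1 library, since it was at 268 CPM in WT replicate 2 and at 14.7 to 106 CPM in the others. Of the 30 genes listed as OPC identity genes, 22 were highest in OPC.

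**Figure D2:**
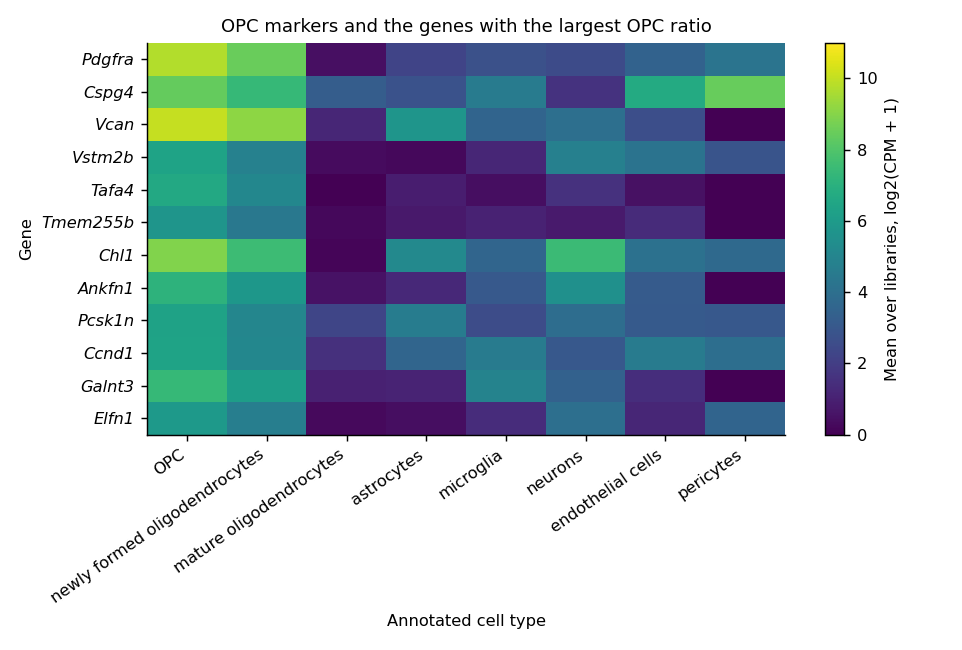
Mean CPM over 8 libraries, as log2(CPM + 1) on a colour scale, of the 3 markers and the other genes with the largest ratio to the next type (rows) in 8 cell types (columns). Pdgfra and Vcan fade from OPC (850 and 1034 CPM) through newly formed (363 and 559 CPM) to mature oligodendrocytes (0.362 and 1.29 CPM), and Cspg4 is present in pericytes (352 CPM) beside OPC (338 CPM).

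The targeted gene could be checked only weakly in OPC, where it is little expressed. Cnp (chr11:100574904-100591729, plus strand) had 1 and 17 UMIs in OPC of the WT libraries, 7 and 3 in Cnp-/-, 18 and 21 in 5xFAD, and 3 and 4 in Cnp-/- 5xFAD, or 1.55 and 48.5, 11.1 and 6.29, 17.0 and 34.0, and 5.16 and 7.72 CPM. The groups with and without Cnp overlapped because of the single UMI of WT replicate 1, and the log2 difference was -1.60 (95% interval -3.44 to 0.24). It did not pass edgeR's quasi-likelihood test (Benjamini-Hochberg adjusted p = 1.00). In mature oligodendrocytes, where the gene is used, Cnp was at 219 to 321 CPM in libraries with the gene and 23.2 to 32.8 CPM in null libraries (log2 difference -3.32, with an adjusted p of 7.02e-04 by the same test), so the labels held there. The remaining reads of the null libraries are counts over the annotated gene and do not measure functional transcript.

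Loss of Cnp changed no gene of OPC past the threshold. Of 20030 genes with a UMI in OPC, 9264 were abundant enough to be tested, and 0 passed an adjusted p of 0.05 for Cnp loss (edgeR's quasi-likelihood test, 4 libraries without Cnp against 4 with it, averaged over 5xFAD). The background is therefore 0% by adjusted p, and 378 genes (4.08%) had an unadjusted p under 0.05, 188 higher (2.03%) and 190 lower (2.05%) without Cnp, while 255 (2.75%) had TMM-scaled values that did not overlap between the groups. DESeq2 called 1 gene, Arsj. The data were precise enough to bound most effects: the median 95% interval reached 0.527 log2 units to each side, and for 6571 genes (70.9%) the whole interval lay within a 2-fold change in either direction. For Pdgfra the effect of Cnp loss was -0.18 log2 units (95% interval -0.38 to 0.02), for Vcan -0.04 (-0.39 to 0.30) and for Cspg4 -0.35 (-0.65 to -0.06, unadjusted p = 0.0239). The libraries with and without Cnp overlapped for Pdgfra and Vcan. For Cspg4 they did not overlap in CPM (249 to 319 without Cnp, 325 to 449 with it) and did on the TMM scale, and Cspg4 failed the adjusted test (adjusted p = 1.00). The count of genes past the threshold was 6 without WT replicate 2, among them the myelin gene Mbp, 1 without Cnp-/- replicate 2, and 0 without any other library.

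**Figure D3:**
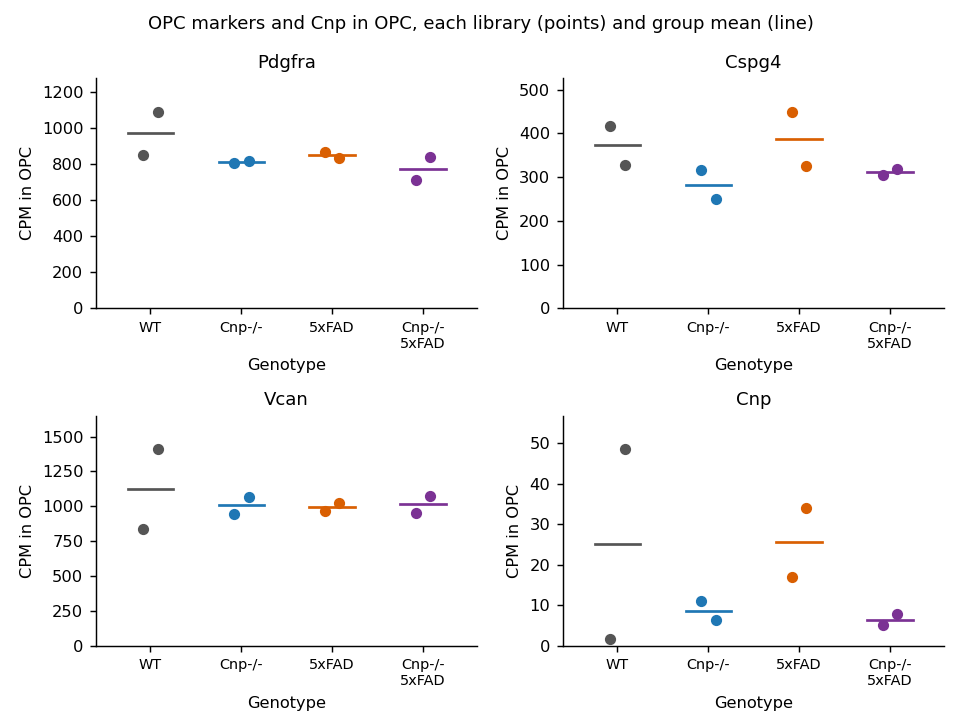
CPM of Pdgfra, Cspg4, Vcan and Cnp in the OPC profile of each library, with points for libraries and a line for the mean of the 2 libraries of a genotype, on a separate linear axis from 0 for each gene. Pdgfra stays between 708 and 1088 CPM and Vcan between 834 and 1410 CPM, and Cnp in WT ranges from 1.55 to 48.5 CPM.

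The genes with the smallest p for Cnp loss are described as values, since none passed. Prickle1, a planar cell polarity protein (chr15:93499114-93595891, minus strand), was at 63.6 and 82.8 CPM in WT, 126 and 128 in Cnp-/-, 37.8 and 67.9 in 5xFAD, and 117 and 129 in Cnp-/- 5xFAD. Every library without Cnp was above every library with it, and the log2 difference was 1.06 (SE 0.188, adjusted p = 0.239). The same gene was higher without Cnp in newly formed oligodendrocytes (1.65, adjusted p = 8.31e-05) and in mature oligodendrocytes (1.25, adjusted p = 0.0260), and the difference of the OPC effect from either did not pass. It was -0.59 (SE 0.262, unadjusted p = 0.0340, adjusted p = 0.514) against newly formed and -0.23 (SE 0.227, adjusted p = 0.950) against mature oligodendrocytes. Prickle1 was at a mean of 698 CPM in neurons and 667 in mature oligodendrocytes, whose markers vary between the OPC profiles as given above, and their part in this value was not tested. Psd, an Arf6 exchange factor, was at 29.5 and 48.5 CPM in WT, 4.74 and 6.29 in Cnp-/-, 18.0 and 24.3 in 5xFAD, and 8.60 and 7.72 in Cnp-/- 5xFAD (-2.03, SE 0.395, adjusted p = 0.356). Its groups did not overlap either.

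Rhoj, a small GTPase, was at 72.9 and 62.8 CPM in WT, 44.2 and 25.1 in Cnp-/-, 76.6 and 87.3 in 5xFAD, and 53.3 and 38.6 in Cnp-/- 5xFAD (-0.87, SE 0.213, unadjusted p = 0.00134). In mature oligodendrocytes the same gene was higher without Cnp (1.25, adjusted p = 0.0186), at 252 and 190 CPM in Cnp-/- against 70.8 and 67.6 in WT, and at 111 and 107 CPM in Cnp-/- 5xFAD against 72.1 and 63.8 in 5xFAD. The OPC effect of Rhoj lay below the mature one by 2.17 log2 units (SE 0.305, adjusted p = 0.0232 for the difference). This call was not made by limma on the per-library difference. Plxdc2, a plexin domain receptor, was at 164 and 180 CPM in WT, 215 and 241 in Cnp-/-, 101 and 84.1 in 5xFAD, and 186 and 166 in Cnp-/- 5xFAD (0.67, SE 0.121, adjusted p = 0.239). Plxdc2 was lower with 5xFAD by about the same amount (-0.63, adjusted p = 0.258) and is abundant in microglia, at a mean of 4010 CPM. The microglia marker sum of the OPC profiles, 85.9 to 134 CPM without Cnp and 28.5 to 82.2 CPM with it, moved in the same direction as Plxdc2 for Cnp loss, and its part in this value was not tested. Arsj, an arylsulfatase, had 24 and 13 UMIs in WT, 1 and 9 in Cnp-/-, 43 and 27 in 5xFAD, and 0 and 0 in Cnp-/- 5xFAD (adjusted p = 0.239). Its libraries with and without Cnp did not overlap. Chn1, a Rac GTPase-activating protein of neurons, was at 136 and 134 CPM in WT, 56.8 and 44.0 in Cnp-/-, 90.8 and 74.4 in 5xFAD, and 94.6 and 61.8 in Cnp-/- 5xFAD, so every mutant library was below WT and those of Cnp-/- were the lowest. Armcx1 and Pakap.1 were also in the set, with log2 differences of -1.55 and 1.66 (adjusted p = 1.00 for both), beside 1 uncharacterised gene.

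5xFAD likewise changed no gene of OPC past the threshold. For 5xFAD 0 of 9264 genes passed (0%), 382 (4.12%) had an unadjusted p under 0.05, 213 higher (2.3%) and 169 lower (1.82%) with 5xFAD, and 293 (3.16%) did not overlap between the groups on the TMM scale. DESeq2 called 3 genes, Nsg2, Kcnc2 and Mmp17, and the interval lay within a 2-fold change for 6555 genes (70.8%). The effect on Pdgfra was -0.13 log2 units (95% interval -0.34 to 0.07), on Cspg4 0.08 and on Vcan -0.08. The count depended on single libraries: it was 13 without 5xFAD replicate 2, 5 without WT replicate 2, 4 without Cnp-/- replicate 1, 3 without Cnp-/- 5xFAD replicate 2 and 1 without 5xFAD replicate 1.

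Nsg2, an endosomal protein that carries receptors in neurons (chr11:32000463-32059202, plus strand), came closest. It was at 41.9 and 57.1 CPM in WT, 17.4 and 18.9 in Cnp-/-, 85.1 and 112 in 5xFAD, and 105 and 67.6 in Cnp-/- 5xFAD, so all libraries with 5xFAD were above all without it. The log2 difference was 1.62 (SE 0.225, 95% interval 1.14 to 2.11, adjusted p = 0.0647). It passed when each library was reduced to the same 90 nuclei (1.91, adjusted p = 0.0162) and when the 10% of OPC nuclei richest in neuron and mature oligodendrocyte markers was left out (1.57, adjusted p = 0.0422). It did not pass with the replicate number as a block (1.62, adjusted p = 0.218) or with limma on mean log-normalized values (0.34, adjusted p = 0.177), and leaving out single libraries gave adjusted p from 0.0274 to 0.272. The limma value is a difference between means of log values of single nuclei. It is on another scale than the log2 differences of summed counts. Nsg2 was at a mean of 139 CPM in neurons. Kcnc2, a voltage-gated potassium channel subunit, was at 150 and 131 CPM in WT, 131 and 101 in Cnp-/-, 70.9 and 61.5 in 5xFAD, and 22.4 and 54.1 in Cnp-/- 5xFAD (-1.37, SE 0.219, adjusted p = 0.125). It passed without the richest 10% of nuclei (-1.63, adjusted p = 0.0237), and its mean in neurons was 421 CPM. Kcnc2 did not pass with the replicate number as a block, with the same 90 nuclei per library or with limma on mean log-normalized values.

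Ddx60, an interferon-induced RNA helicase, had 4 and 2 UMIs in WT, 11 and 5 in Cnp-/-, 32 and 20 in 5xFAD, and 18 and 21 in Cnp-/- 5xFAD. It was at 5.71 to 17.4 CPM without 5xFAD and 30.3 to 40.5 CPM with it (1.81, SE 0.327, adjusted p = 0.226). Plxna4, a semaphorin receptor, was at 112 and 128 CPM in WT, 112 and 96.4 in Cnp-/-, 30.3 and 51.8 in 5xFAD, and 92.8 and 77.2 in Cnp-/- 5xFAD (-0.95, adjusted p = 0.258). The lower values were those of 5xFAD with intact Cnp, although the groups of 4 did not overlap. Bcl6, a transcriptional repressor, was at 93.0 to 131 CPM without 5xFAD and 50.2 to 73.8 CPM with it (-0.89, adjusted p = 0.258). Neurl1a, a ubiquitin ligase of the neuralized family, was at 7.75 to 35.6 CPM without 5xFAD and 34.8 to 50.1 with it (1.29, adjusted p = 0.258). These ranges overlap slightly in CPM and do not overlap on the TMM scale. The low libraries of Neurl1a were those of WT (7.75 and 11.4 CPM), beside 28.4 and 35.6 in Cnp-/-. Cnp-/- 5xFAD against Cnp-/- gave 0.28 (unadjusted p = 0.407 by edgeR's test). Mmp17, a membrane-type matrix metalloproteinase, had 0 and 0 UMIs in WT, 12 and 1 in Cnp-/-, 45 and 19 in 5xFAD, and 25 and 13 in Cnp-/- 5xFAD (adjusted p = 0.258), beside a mean of 48.7 CPM in neurons. Ldb2, a LIM-domain binding cofactor, was at 167 and 157 CPM in WT, 189 and 193 in Cnp-/-, 131 and 162 in 5xFAD, and 91.1 and 54.1 in Cnp-/- 5xFAD (-0.78, adjusted p = 0.258). The low libraries were those of Cnp-/- 5xFAD, and 5xFAD against WT gave -0.21 (unadjusted p = 0.337).

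**Figure D4:**
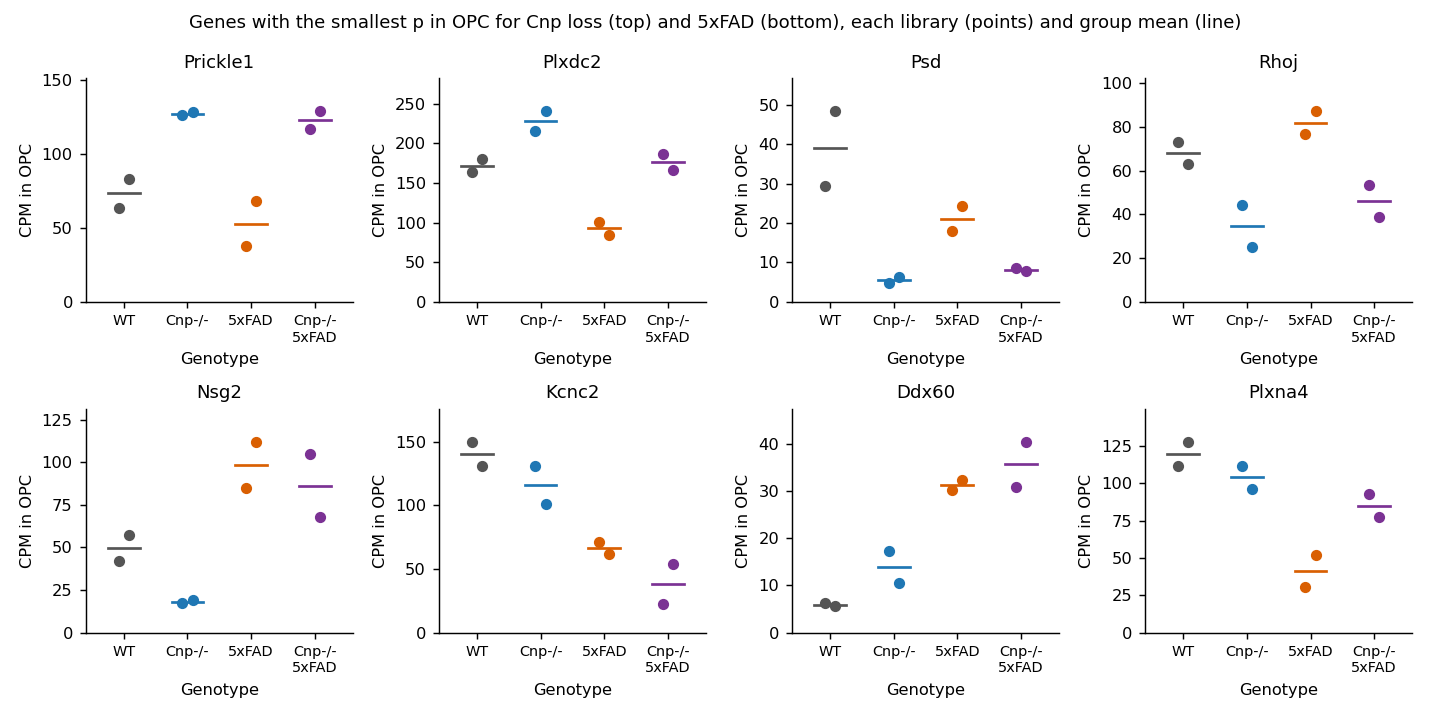
CPM in the OPC profile of each library for 4 genes with small p for Cnp loss (Prickle1, Plxdc2, Psd, Rhoj; upper row) and 4 for 5xFAD (Nsg2, Kcnc2, Ddx60, Plxna4; lower row), with points for libraries and a line for the mean of each genotype. No gene passed the adjusted threshold, and Prickle1 separates null from other libraries (117 to 129 against 37.8 to 82.8 CPM) as Nsg2 separates 5xFAD from other libraries (67.6 to 112 against 17.4 to 57.1 CPM).

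Genotypes were also compared with each other by edgeR's quasi-likelihood test. For Cnp-/- against WT 0 of 9264 genes passed (373 at unadjusted p, 4.03%), and for 5xFAD against WT 0 passed (375, 4.05%). For Cnp-/- 5xFAD, 1 gene (0.0108%) passed against 5xFAD and 1 (0.0108%) against Cnp-/-, with 295 (3.18%) and 335 (3.62%) at an unadjusted p under 0.05. With the replicate number as a block 0 genes passed in either of these comparisons, and with only the 4 libraries compared 0 passed against 5xFAD and 8 against Cnp-/-.

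The interaction, the effect of Cnp loss with 5xFAD minus that without it, passed for 0 of 9264 genes (0%; 0 also with DESeq2 and with limma), with 328 (3.54%) at an unadjusted p under 0.05, 188 positive (2.03%) and 140 negative (1.51%), and a median interval of 1.05 log2 units to each side. The count was 4 without WT replicate 1 and 1 without Cnp-/- replicate 1 or 5xFAD replicate 1. Of 20 cell cycle genes tested, 6 were positive (Top2a, Cenpf, Cenpe, Prc1, Knl1, Ccnd1) and 1 negative (Cdk6) at an unadjusted p under 0.05, or 35% against 3.54% of all genes, with a list median of 0.516 against 0.00106. Those 7 genes are named because of their p, after their values were seen. At least 2 UMIs of 20 mitotic genes were found in 0.515% to 3.33% of thinned OPC nuclei by library. Top2a, Cenpf, Cenpe, Prc1 and Knl1 are among these genes, so their values rest on few nuclei and need not be independent. Cenpe, a mitotic kinesin, was at 27.9 and 42.8 CPM in WT, 1.58 and 4.19 in Cnp-/-, 10.4 and 4.85 in 5xFAD, and 32.7 and 15.4 in Cnp-/- 5xFAD. Top2a, the topoisomerase of dividing cells, was at 37.2 and 99.9 CPM in WT, 12.6 and 27.2 in Cnp-/-, 34.1 and 11.3 in 5xFAD, and 37.8 and 34.8 in Cnp-/- 5xFAD. Prc1, which builds the central spindle, was at 31.0 and 28.5 CPM in WT, 12.6 and 16.8 in Cnp-/-, 13.2 and 12.9 in 5xFAD, and 27.5 and 29.0 in Cnp-/- 5xFAD. For Prc1 and Cenpe each single mutant library lay below each WT and each Cnp-/- 5xFAD library. With 90 nuclei per library the count was 2 of 9 tested and the list median turned to -0.142. It was 4 without either Cnp-/- 5xFAD library and 1 with limma on mean log-normalized values. It was 8 of 23, with a median of 1.34, without 5xFAD replicate 1, 8 of 20 without the 10% of nuclei richest in other markers, and 13 of 44, with 3 past the adjusted threshold and a median of 0.825, with no filter on low counts. By the main effects 0 of the 20 genes reached an unadjusted p under 0.05 for Cnp loss or for 5xFAD, against 4.08% and 4.12% of all genes. Ccnd1 (82.2 CPM) had effects of -0.08 (SE 0.203) for Cnp loss and 0.21 (SE 0.203) for 5xFAD, and Ezh2, a chromatin repressor of progenitors, of -0.21 (SE 0.182) and 0.18 (SE 0.181).

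Gene lists of OPC function were read as counts beside those of all 9264 genes, and no list held a gene past the adjusted threshold for Cnp loss or 5xFAD. Genes named from a list below are its most abundant members or those with an unadjusted p under 0.05, the latter chosen after their values were seen. Of 28 tested OPC identity genes 5 (17.9% against 4.08% of all genes) had an unadjusted p under 0.05 for Cnp loss, all lower: Cspg4 (-0.35), the lineage transcription factor Olig1 (-0.56), the proteoglycan brevican Bcan (-0.36), the matrix protein Matn4 (-0.26) and the integrin Itga9 (-0.37). Bcan was at 504 and 471 CPM in WT, 425 and 316 in Cnp-/-, 467 and 412 in 5xFAD, and 328 and 367 in Cnp-/- 5xFAD. Itga9 was at 330 and 402 CPM in WT, 264 and 283 in Cnp-/-, 333 and 293 in 5xFAD, and 225 and 268 in Cnp-/- 5xFAD. The groups with and without Cnp did not overlap for Itga9 and overlapped slightly for Bcan. The list as a whole moved little, with a median of -0.03 beside 0.00 for all genes, and the intervals of 27 of 28 members lay within a 2-fold change. Leaving out single libraries gave 2 to 7 such genes, and 2 without 5xFAD replicate 1 or Cnp-/- 5xFAD replicate 1, 3 without WT replicate 2 or Cnp-/- replicate 2. For 5xFAD 1 member (3.57% against 4.12% of all genes, near the background), the lineage factor Olig2 (-0.44), had an unadjusted p under 0.05. All 28 intervals for 5xFAD lay within a 2-fold change. That count was 7 of 30, 6 of them lower, without WT replicate 1, and 0 without WT replicate 2, Cnp-/- replicate 2, 5xFAD replicate 2 or Cnp-/- 5xFAD replicate 1. The most abundant members were the membrane protein Lhfpl3, at 5692 to 7324 CPM (0.05 ± 0.0760 SE for Cnp loss, 0.08 ± 0.0760 for 5xFAD), the protocadherin Pcdh15 (-0.06 and -0.03), the adhesion molecule Dscam (-0.01 and 0.10) and tenascin-R, Tnr (0.06 and 0.08).

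Of 22 tested genes of differentiating OPC 2 (9.09% against 4.08% of all genes) had an unadjusted p under 0.05 for Cnp loss, 1 in each direction, and 1 (4.55% against 4.12%, near the background) for 5xFAD. Myrf, the transcription factor that switches on myelin genes, had an unadjusted p under 0.05 for Cnp loss (1.37, SE 0.466) and for 5xFAD (1.54, SE 0.463), and Sirt2, a deacetylase of the lineage, for Cnp loss (-0.34). Myrf was at 1.55 and 5.71 CPM in WT, 28.4 and 10.5 in Cnp-/-, 24.6 and 21.0 in 5xFAD, and 24.1 and 25.1 in Cnp-/- 5xFAD. Its WT libraries were the lowest of the 8, with only 1 and 2 UMIs, and Cnp-/- replicate 2 had 5 UMIs. Itpr2 (-0.07 and -0.03) and Bcas1 (0.04 and 0.14) showed small averaged differences for Cnp loss and 5xFAD. For the interaction 13.6% of the list, against 3.54% of all genes, had an unadjusted p under 0.05. These were Bcas1 (0.56) and Fyn (0.66) on the positive side and Myrf (-2.46) on the negative, and 0 passed the adjusted threshold. Bcas1 was at 507 and 574 CPM in WT, 447 and 476 in Cnp-/-, 474 and 537 in 5xFAD, and 626 and 591 in Cnp-/- 5xFAD. Of 19 tested myelin genes 1, Mbp (0.88, SE 0.292), had an unadjusted p under 0.05 for Cnp loss (5.26% against 4.08%), with a list median of 0.256. Mbp was at 17.1 and 65.7 CPM in WT, 79.0 and 88.0 in Cnp-/-, 53.0 and 58.2 in 5xFAD, and 75.6 and 86.9 in Cnp-/- 5xFAD. WT replicate 1 was low for Mbp as it was for the mature oligodendrocyte marker sum, and the part of that sum in this value was not tested. Without WT replicate 2 the list gave 7 of 22 genes at unadjusted p, 2 of them past the adjusted threshold, and a median of 1.15.

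Receptors and channels through which neurons signal to OPC were counted next. Of 32 tested glutamate and GABA receptor genes 2 (6.25%) had an unadjusted p under 0.05 for Cnp loss and 3 (9.38%) for 5xFAD, against 4.08% and 4.12% of all genes. Among the most abundant, the AMPA receptor subunit Gria2 was at 880.8 to 1116 CPM (-0.02 for Cnp loss and 0.06 for 5xFAD) and the kainate receptor subunit Grik2 at 926 to 1093 CPM (0.05 and 0.00082). The 3 genes for 5xFAD were the GABA-A receptor subunits Gabra3 (-1.01) and Gabrb2 (-0.68) and the kainate receptor subunit Grik4 (0.22), none of which passed. Gabra3 was at 96.1 and 71.4 CPM in WT, 109 and 115 in Cnp-/-, 77.6 and 93.8 in 5xFAD, and 44.7 and 9.65 in Cnp-/- 5xFAD. Its 5xFAD libraries lay within the WT range, and Cnp-/- 5xFAD alone was low (interaction -1.92, unadjusted p = 0.00928, adjusted p = 1.00). Of 31 ion channel genes 1 (3.23%), Itpr1 (0.91), had such a p for Cnp loss and 5 (16.1% against 4.12%) for 5xFAD. Of these, 2 were higher (Kcnip3, 0.24, and Cacna1c, 0.25) and 3 lower (among them Kcnip1, -0.35, and Itpr1, -0.69). Itpr1 was at 93.0 and 57.1 CPM in WT, 52.1 and 132 in Cnp-/-, 30.3 and 29.1 in 5xFAD, and 92.8 and 88.8 in Cnp-/- 5xFAD. Its low libraries were those of 5xFAD with intact Cnp (interaction 1.47, unadjusted p = 0.0286 by edgeR's test). Kcnip3 and Kcnip1 bind the potassium channel Kcnd2, which was at 3574 to 4311 CPM with differences of 0.04 and -0.07 (SE 0.0788). The channel count for 5xFAD was 1 without Cnp-/- replicate 2 or 5xFAD replicate 1 and 3 without WT replicate 2 or Cnp-/- 5xFAD replicate 1. It was 7 without WT replicate 1 or Cnp-/- replicate 1, and 10 of 32, with 1 past the adjusted threshold, with no filter on low counts.

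Growth factor genes included Erbb4, a neuregulin receptor, at 2437 to 3062 CPM (0.06 for Cnp loss and -0.09 for 5xFAD, SE 0.0834). Of 24 tested, 1 (4.17% against 4.08% of all genes), the adhesion receptor Adgrg1 (-0.76), had an unadjusted p under 0.05 for Cnp loss and 2 (8.33% against 4.12%) for 5xFAD, the neuregulin receptor Erbb3 (0.56) and the fibroblast growth factor receptor Fgfr2 (-0.23). Of 47 matrix and adhesion genes 3 (6.38% against 4.12%) had such a p for 5xFAD, 5 (10.6% against 3.54%) for the interaction and 4 (8.51% against 4.08%) for Cnp loss. Those for Cnp loss were Bcan and the collagen Col27a1 (-1.11) on the lower side and Plxna4 (0.48) and Ephb1 (0.38) on the higher. Plxna4 was not higher in Cnp-/- against WT (-0.20) and was in Cnp-/- 5xFAD against 5xFAD (1.155). Its interaction was 1.355 (unadjusted p = 0.00303 by edgeR's test), which did not pass. The synaptic adhesion molecule Nlgn1 was at 4460 to 5023 CPM (-0.02 for Cnp loss and -0.02 for 5xFAD).

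Many disease-associated and inflammatory genes were too sparse in OPC to be tested. Of 30 disease-associated genes 15 were tested, and the most abundant, Apoe and Il1rap, had means of 390 and 241 CPM. Of 15 tested genes of disease-associated oligodendrocyte lineage cells, C4b, the complement component that reactive glia express, had an unadjusted p under 0.05 for 5xFAD (1 of 15, 6.67% against 4.12%). C4b had 2 and 1 UMIs in WT, 8 and 7 in Cnp-/-, 28 and 19 in 5xFAD, and 18 and 5 in Cnp-/- 5xFAD, or 2.85 to 14.7 CPM without 5xFAD and 9.65 to 30.9 CPM with it (1.87, SE 0.472, adjusted p = 0.663). The groups overlapped because of Cnp-/- 5xFAD replicate 2. Of 38 antigen presentation and interferon genes 12 were abundant enough to be tested, and 1, Irf9, a subunit of the interferon-activated transcription complex, had such a p for 5xFAD (1.18; 8.33% against 4.12% of all genes). Of 10 tested senescence genes 0 had an unadjusted p under 0.05 for either change. All 10 tested stress response genes were below 0 for 5xFAD with a median of -0.252, and 0 of them had an unadjusted p under 0.05. Of all genes, 4655 were above and 4609 below 0 for 5xFAD. For Cnp loss 1 of the 10 stress response genes (10% against 4.08% of all genes), Xbp1 (-1.24), had such a p. Of 5 tested immediate early genes 2 had such a p for Cnp loss (40% against 4.08% of all genes), in opposite directions. Jun (1.35) was at 1.55 and 17.1 CPM in WT and 17.0 to 37.7 CPM in the other libraries, and Jund (-3.05, SE 1.30) had 0 and 25 UMIs in WT, 2 and 1 in Cnp-/-, 29 and 4 in 5xFAD, and 1 and 2 in Cnp-/- 5xFAD.

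The responses of OPC to Cnp loss were then set against those of their progeny and of astrocytes in the same libraries, with the library as a block. Cnp loss changed 155 of 7248 genes in newly formed oligodendrocytes (2.14%), 69 of 8761 in mature oligodendrocytes (0.788%) and 0 of 11809 in astrocytes (edgeR's quasi-likelihood test), against 0 of 9264 in OPC. For 5xFAD the counts were 3 of 7248 (0.0414%) in newly formed oligodendrocytes and 0 in the other types. The difference between the OPC and the other effect passed for 27 of 9365 genes against newly formed oligodendrocytes (0.288%) and for 18 of 11243 against mature oligodendrocytes (0.16%). For all 18 genes the OPC effect was the smaller in size, with a median of 0.076 log2 units and a largest of 0.867 against a median of 2.45 in mature oligodendrocytes, and for 26 of 26 of the 27 that were tested in both types it was smaller than in newly formed oligodendrocytes (median 0.135 against 1.01). Against astrocytes 0 of 12393 genes passed for Cnp loss (460 at unadjusted p) or for 5xFAD (457), and 0 with limma.

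The counts of differing genes depended on single libraries and on the test. Against newly formed oligodendrocytes, whose profiles held 22 to 104 nuclei, the count was 122 without WT replicate 2, 1 without Cnp-/- replicate 1, 4 without WT replicate 1, 6 without Cnp-/- replicate 2 or Cnp-/- 5xFAD replicate 1, and 0 with limma on the per-library difference (633 at unadjusted p). Against mature oligodendrocytes it was 3 without 5xFAD replicate 1, 5 without Cnp-/- 5xFAD replicate 2 and 3 with limma, all 3 with the OPC effect above the mature one, so that Rhoj and Cadps were not among them. The direction, smaller effects in OPC, is partly fixed by the choice of genes that passed.

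Examples were chosen after their values were seen. Opcml, a neural adhesion molecule, was at 4464 to 5465 CPM in OPC with a Cnp effect of 0.15, and in mature oligodendrocytes at 63.8 to 79.4 CPM with Cnp and 4.87 to 33.9 CPM without it (-2.54; edgeR's adjusted p = 0.00202 for the difference). In mature oligodendrocytes all null libraries were below all libraries with Cnp. Gramd1b, a sterol transfer protein, had effects of -0.08 in OPC and -3.62 in mature oligodendrocytes (adjusted p = 0.00202), the axon guidance receptor Robo1 -0.17 and -4.25 (0.0182), and Cadps, which primes dense-core vesicles, 0.02 and 2.50 (0.00846). Trpm3, a cation channel, was at 409 and 331 CPM in OPC of WT, 390 and 354 of Cnp-/-, 319 and 320 of 5xFAD, and 337 and 286 of Cnp-/- 5xFAD. In newly formed oligodendrocytes Trpm3 was at 1356 and 1502 CPM in WT, 449 and 396 in Cnp-/-, 611 and 777 in 5xFAD, and 483 and 383 in Cnp-/- 5xFAD, so that the WT libraries stood apart there and not in OPC (-0.01 in OPC against -1.20, adjusted p = 0.00175 for the difference). Zfp536, a zinc finger repressor, was at 281 to 329 CPM in OPC (0.05) and differed in newly formed oligodendrocytes (1.02, adjusted p = 0.0116 for the difference). Zfp536 was at 1948 to 3414 CPM in mature oligodendrocytes. Markers of other types moved with Cnp in the newly formed profiles: the 13 mature oligodendrocyte markers summed to 2219 to 5471 CPM with Cnp and 6555 to 7641 CPM without it, and the 11 astrocyte markers to 7426 to 12754 CPM with Cnp and 5374 to 5830 CPM without it. Neither pair of ranges overlapped, and their part in the differences from newly formed oligodendrocytes was not tested. In the mature profiles the same 13 markers summed to 21881 to 25088 CPM with Cnp and 20988 to 26076 CPM without it. Neurons held a higher mean than mature oligodendrocytes for 12 of the 18 genes, the 10 neuron markers summed to at most 79.4 CPM in the mature profiles, and the part of neuronal RNA was not tested.

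Genes called for Cnp loss in the progeny had a smaller median effect in OPC, on lists chosen for their effect in the other type. Of the 155 genes called in newly formed oligodendrocytes 126 were tested in OPC, 0 were called there, and their median size of change was 0.199 log2 units in OPC against 0.98 in the calling type. Of the 69 genes called in mature oligodendrocytes 55 were tested in OPC, with 0 called and medians of 0.152 and 1.33. The difference itself passed for 21 of the 126 and 14 of the 55 genes, and for the others no difference between the types was detectable at this depth.

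**Figure D5:**
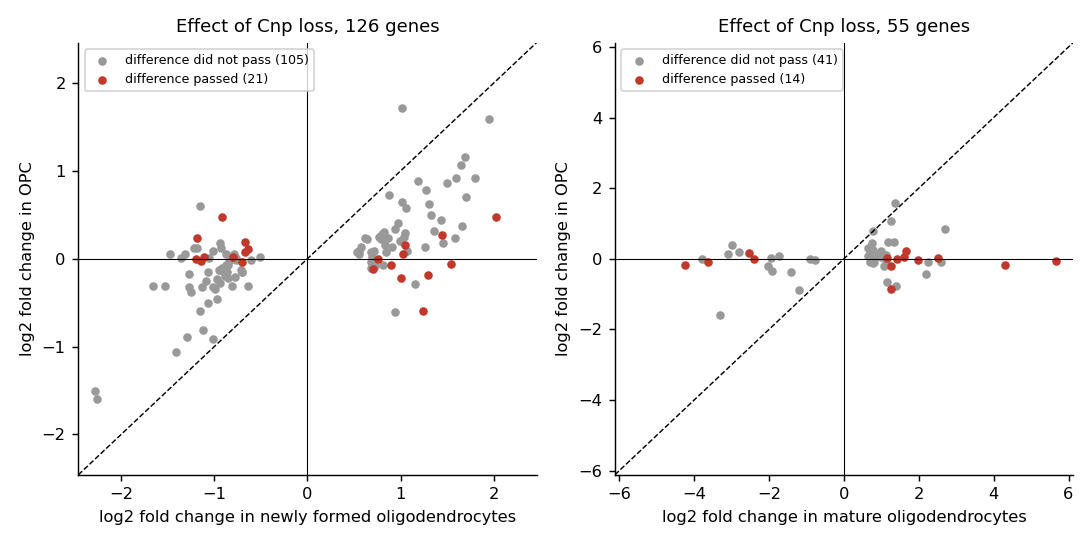
Log2 effect of Cnp loss in OPC (y axis) against that in newly formed oligodendrocytes (left, 126 genes called there) and in mature oligodendrocytes (right, 55 genes called there), each point a gene, in red where the difference between types passed (21 and 14 genes) and grey where it did not, with a dashed line of equal effects. The red points lie between -0.867 and 0.476 on the OPC axis, and over all points the median size in OPC was 0.199 and 0.152 log2 units against 0.98 and 1.33 in the types in which the genes were chosen.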

How the data were processed

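Frozen hemispheres were processed to single nuclei on the 10x platform. Per the study's methods, the authors aligned reads with Cell Ranger 6.1.2 to mm10, removed ambient RNA with CellBender, filtered nuclei on genes and UMIs, removed undefined clusters and annotated the nuclei. Doublet handling and intron counting are not given in the sources used here. The deposited values are raw UMI counts per gene and nucleus. From these counts, OPC UMIs were summed per library and tested in edgeR 4.0.16 (quasi-likelihood, robust, TMM, low-count filter, Benjamini-Hochberg threshold 0.05) with 4 genotype means (R 4.3.3; limma 3.58.1 and DESeq2 1.42.0 as alternatives). The test of OPC and that of the difference from newly formed oligodendrocytes were tried on simulated data. The differences from mature oligodendrocytes and astrocytes were not simulated. Exact permutation served for shares, and types were compared with the library as a block. Markers and gene lists were chosen with earlier results of these data known. The genes named were the markers and Cnp, the 10 smallest p for Cnp loss and for 5xFAD where fewer than 5 passed (uncharacterised genes counted only), the 4 most abundant members of a list, and the 10 highest ratios to the next type at 50 CPM or more. Leaving out libraries, other filters, tests, nuclei and a replicate block were tried. Some genes that these rules name are not reported here. Gene positions are from GENCODE on GRCm38. Depth was 350331 to 1057104 OPC UMIs per library.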

Additional observations from a re-analysis of the deposited data

Results flagged for a closer look

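In 88 groups of 4 libraries examined for a library far from the rest, 5 values stood out, where chance gives about 1 in 20. Pdgfra was highest in WT replicate 2 (1088 CPM), which lay apart both from the other libraries with Cnp and from the other libraries without 5xFAD. Cspg4 was highest in 5xFAD replicate 1 (449 CPM) among libraries with 5xFAD. Arsj was at 18.9 CPM in Cnp-/- replicate 2, far above the 0 to 1.58 CPM of the other null libraries, and Mmp17 was at 18.9 CPM in Cnp-/- replicate 1, above the 0 to 2.10 CPM of the other libraries without 5xFAD.

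The effect of Cnp loss differed between OPC and mature oligodendrocytes for 18 genes and between OPC and newly formed oligodendrocytes for 27 genes by the test of the difference itself.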

How the results depend on the processing

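With no filter on low counts, the counts of genes past the threshold were 53 for Cnp loss, 66 for 5xFAD, 41 for the interaction, and 242, 76, 151 and 142 for the OPC effect against mature and newly formed oligodendrocytes (Cnp loss) and astrocytes (Cnp loss, 5xFAD). DESeq2 called 1 gene for Cnp loss and 3 for 5xFAD, equal nuclei per library gave 1 for 5xFAD, leaving out the 10% of nuclei richest in other markers 2, and limma gave 3 and 0 against mature and newly formed oligodendrocytes. Leaving out single libraries gave 0 to 6 genes for Cnp loss, 0 to 13 for 5xFAD, 0 to 4 for the interaction, 3 to 25 against mature and 1 to 122 against newly formed oligodendrocytes, with share differences of -0.682 to 0.262 (Cnp) and 0.380 to 1.05 percentage points (5xFAD). Among nuclei that are not neurons the share difference by Cnp was 0.0282 percentage points. The causes were not tested.

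Same-numbered libraries did not pair, with correlations of their deviations from -0.113 to 0.115. With the replicate number as a block, 0 genes passed for Cnp loss, 5xFAD, the interaction and each genotype comparison, so the 1 call in each comparison of Cnp-/- 5xFAD with a single mutant was lost. With only the 4 libraries compared, 0 genes passed against 5xFAD and 8 against Cnp-/-. With the numbers of Cnp-/- crossed against WT, chosen after seeing the data, 0 genes passed (365 at unadjusted p).

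Signs turned when libraries were left out for Vcan (Cnp loss -0.22 to 0.16, 5xFAD -0.26 to 0.12) and Cnp (Cnp loss -2.16 to 0.23, 5xFAD -0.73 to 1.68), the higher ends without WT replicate 2, and for Cspg4 (5xFAD -0.059 without 5xFAD replicate 1 to 0.19), and with equal nuclei for Vcan (Cnp loss 0.042). Of the other values of single genes, 730 kept their direction and side of the threshold, 50 came to pass and 3 ceased to pass, and of the counts and shares 90 stayed, 34 moved and 2 changed sign. With 90 to 309 OPC nuclei per library, depth limits the rarer genes.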

Other observations

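Genes of 3 further groups were described by the same counts. Of 29 tested cholesterol and lipid synthesis genes, 1 (3.45%, against 4.08% of all genes) had an unadjusted p under 0.05 for Cnp loss, the sterol desaturase Sc5d (-1.92, SE 0.714), and 0 for 5xFAD. Their medians were -0.145 for Cnp loss and -0.04 for 5xFAD, beside 0.00 for all genes. Apoe, the lipid carrier, ranged from 227 to 884.9 CPM across the OPC profiles (-0.26, SE 0.405, for Cnp loss and -0.56, SE 0.405, for 5xFAD), and acetyl-CoA carboxylase Acaca stayed between 208.4 and 263 CPM.

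Of 31 tested genes of Wnt, BMP and Notch signalling 0 had an unadjusted p under 0.05 for Cnp loss and 3 (9.68% against 4.12%) for 5xFAD: Smad3, a transducer of TGF-beta signals (0.65), had a positive difference, and Lgr5, an R-spondin receptor (-0.51, SE 0.197), and Id3, an inhibitor of differentiation factors (-2.20, SE 0.707), a negative one, and none passed the adjusted threshold. Id3 had 8 and 5 UMIs in WT, 14 and 15 in Cnp-/-, 8 and 15 in 5xFAD, and 0 and 1 in Cnp-/- 5xFAD, so the low libraries were those of Cnp-/- 5xFAD (interaction -4.72, unadjusted p = 0.0051). The Notch coactivator Maml2 was the most abundant, at 1239 to 1652 CPM (0.09 and 0.12, SE 0.0944). Of 16 tested genes of APP processing 1 (6.25% against 4.12% of all genes) had such a p for 5xFAD, Adam10 (-0.38, SE 0.161), an alpha-secretase. App was at 145.8 to 393.9 CPM, with differences of 0.23 (SE 0.292) for Cnp loss and 0.35 (SE 0.292) for 5xFAD.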
